A study of Mus musculus with 36 samples.

Results

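The last stretch of reprogramming in control cells was examined by comparing 3 libraries of cells at day 7 of reprogramming (D7_WT) with 3 libraries of iPSC clones (iPS_WT), 6 of the 36 libraries of the series. The members were all control libraries at those stages, and 21436 of the 21442 genes in the count table could be tested between them. All 6 libraries came from Cas9 TNG MKOS cells, made from E14Tg2a-derived ESCs through chimeric embryos. These cells carry Cas9 in Rosa26, a reporter in the Nanog locus (Nanog-GFP-ires-Puro) and, in the Sp3 locus, a cassette from which doxycycline induces Myc, Klf4, Oct4 (Pou5f1), Sox2 and mOrange. Both groups had received a non-targeting sgRNA, so that they served as the control for Zfp266 KO. For D7_WT, embryonic fibroblasts (MEFs) from E12.5 chimeric embryos were mixed with wild-type 129 MEFs. They were kept in ESC medium with 300 ng/ml doxycycline and 10 µg/ml vitamin C for 7 days, and mOrange-positive cells were sorted. The control MEF libraries used below for comparison were of the same embryonic age. For iPS_WT, colonies were lifted on day 15 and single Nanog-GFP-positive cells were sorted into clones. The clones grew without doxycycline in medium with 1 µg/ml puromycin. Each iPS_WT library was a separate clone, and the study describes the reprogramming libraries as independent samples without saying whether the cultures or the MEFs were separate, so that the p-values below measure the spread between these libraries only. Stage, doxycycline and transgene expression, vitamin C, the sorted marker, puromycin and clonal growth changed together between the groups and cannot be told apart. The sorted GFP and puromycin resistance were both driven by the Nanog locus, so that a high Nanog level in the clones was a condition of their selection.

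Reprogramming factors first silence the fibroblast programme and impose an epithelial state, and a self-sustaining pluripotency network is switched on later, in a small share of the cells. Naive pluripotency in mouse rests on a set of transcription factors that includes Nanog, Esrrb, Klf2, Tfcp2l1 and Prdm14, held by LIF signalling, together with chromatin factors such as Tet1, Dnmt3l and Polycomb repressive complex 2 (PRC2). Cells part of the way can carry epidermis-like and stress-related transcripts that neither fibroblasts nor pluripotent cells use. The comparison asks what a day 7 cell population still has to gain and still has to lose.

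Library totals were 28707117 to 29692027 counts for D7_WT and 32896517 to 34537627 for iPS_WT, and values below are counts divided by a median-ratio size factor (normalised counts) unless stated otherwise. At this depth 3 counts in a library corresponded to 3.02 to 3.09 normalised counts at day 7 and to 2.58 to 2.78 in iPSCs, and these limits and all count intervals cover counting error only. In these bulk libraries, fewer cells of a type and less RNA per cell cannot be told apart. One library stood apart in a few genes. A set of 9 rows, among them Lars2, CT010467.1, Gm15564 and Mir6236, took 2.81% of the normalised counts in D7_WT replicate 1 but 0.274% and 0.317% in replicates 2 and 3 and 0.208 to 0.251% in the iPSC clones. All 9 were called lower in iPSCs with every library in the fit (Lars2 log2FC -2.18) and none without D7_WT replicate 1 (Lars2 log2FC -0.41), so that they are included in the counts below but not read as a difference between the stages. Against the labels, the markers were as follows. Nanog, Esrrb and Zfp42 were high in all 3 clones, while the fibroblast markers Col3a1, Prrx1 and Twist2 were at no more than 1.72 normalised counts in any clone. The other fibroblast markers had more. Over the 3 clones together, raw counts were 7 for Col1a2 and 32 for Col1a1, against 25432 and 36378 at day 7. Thy1, Pdgfra and Pdgfrb had 109, 115 and 155, against 1054, 291 and 523 at day 7.

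More genes were lower than higher in iPSCs. Of the 21436 genes tested, 4280 (20%) were higher and 5366 (25%) lower in iPSCs at an FDR under 0.05 and an absolute log2FC over 1 (DESeq2 Wald test), 45% in all, and the median log2FC of all genes was 0.01. The 3 clones and the 3 day 7 libraries did not overlap for 15751 genes (73.5%). Genes called higher took 5.54 to 5.91% of each day 7 library and 18.4 to 18.8% of each iPSC library. Genes called lower took 21.5 to 24.0% of each day 7 library and 5.30 to 5.62% of each iPSC library, or 21.2 to 22.0% and 5.08 to 5.41% without the 9 rows that were high in D7_WT replicate 1. Gene lists below are read against the shares of 20% higher and 25% lower.

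**Figure D1:**
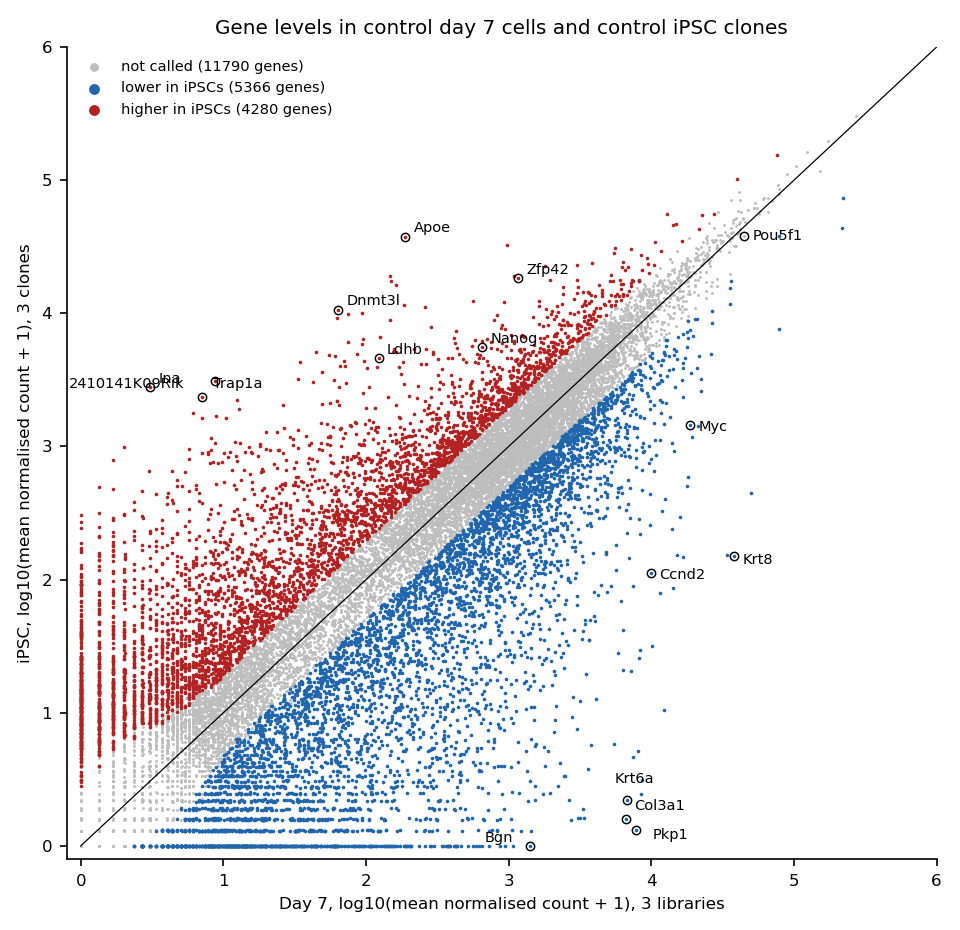
Mean normalised count of each gene at day 7 (x axis, log10 of the mean of 3 libraries plus 1) against that in iPSCs (y axis, log10 of the mean of 3 clones plus 1), with the 4280 genes called higher in iPSCs in red, the 5366 called lower in blue and the 11790 not called in grey; the black line marks equal levels. Ina lay at 2.04 at day 7 and 2777 in iPSCs, Col3a1 at 6625 and 0.597, while Pou5f1 lay close to the line at 44937 and 38190.

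Of the 20 naive and core pluripotency transcription factors, 19 were higher in iPSCs and none was lower, with a median log2FC of 3.06. Summed over the list, the day 7 libraries held 16444 to 19104 normalised counts and the clones 127520 to 138176. Nanog, the homeobox factor at the centre of the network, was at 562, 745 and 641 at day 7 and at 4853, 5619 and 6216 in the clones, and since the clones were selected through this locus the difference (log2FC 3.10) is not a finding. Esrrb (chr12:86361117-86521628, GRCm38.p6, as for all coordinates here), an orphan nuclear receptor that can stand in for Nanog, was at 1902, 2120 and 1830 at day 7 and at 17692, 17723 and 17886 in iPSCs (log2FC 3.19, SE 0.11, FDR 4.44e-183, DESeq2). The clones were close to one another and far above every day 7 library. Zfp42 (Rex1, chr8:43295063-43306980), a classical marker of ESCs, was at 1044, 1483 and 962 at day 7 and at 20380, 18116 and 16788 in iPSCs (log2FC 3.99, SE 0.16, FDR 4.32e-135). Klf2 (chr8:72319033-72321656), a Krüppel-like factor of the naive network, was at 170, 169 and 99.8 at day 7 and at 11251, 7532 and 7967 in iPSCs (log2FC 5.93, SE 0.26, FDR 1.46e-114).

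Members of the same network were at different points at day 7. Tfcp2l1, a target of LIF and STAT3 signalling, was already at 2321, 2654 and 2139 and rose to 11365, 11577 and 12530 (log2FC 2.32, FDR 1.73e-47). Nr0b1 (Dax1), an orphan receptor that binds Oct4, was at 95.3, 107 and 55.6 and rose to 4691, 5834 and 4408 (log2FC 5.86, FDR 4.42e-188). Gbx2, a homeobox target of STAT3, was at 0, 10.1 and 11.3 and rose to 593, 2231 and 658 (log2FC 7.35, SE 0.71, FDR 3.69e-24). None of these 3 genes overlapped between the groups. Prdm14, a repressor that guards naive cells against FGF signalling, rose from a mean of 47.4 ± 19 (SD, n = 3) to 355 ± 75.6 (SD, n = 3; log2FC 2.90). Klf5 rose from 432 ± 34.0 to 5475 ± 826 (log2FC 3.66) although MEFs held 1423 on average. The exception was Sox15, a Sox2 relative, at 64.9, 73.5 and 58.6 at day 7 and at 70, 110 and 210 in iPSCs (log2FC 0.98, FDR 0.0334), which did not pass the fold threshold. Sox15 lies across Mpdu1 on the other strand, and the strand setting of the counting is not given in the sources used here.

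Late pluripotency effectors followed with 19 of 22 higher, 2 lower and a median log2FC of 2.79. Dppa4 (chr16:48283733-48294237) and its neighbour Dppa2 encode partner DNA-binding proteins of pluripotent cells. Dppa4 was at 47.7, 78.5 and 35.0 at day 7 and at 4305, 5393 and 4769 in iPSCs (log2FC 6.49, SE 0.20, FDR 1.95e-225), and Dppa2 rose from 70.9 ± 54.2 to 2994 ± 78.6 (log2FC 5.40). Dnmt3l (chr10:78041947-78063622), the catalytically inactive partner of the de novo DNA methyltransferases, was at 39.6, 126 and 22.6 against 9290, 12762 and 9909 (log2FC 7.41, SE 0.46, FDR 4.91e-57). For all 3 genes D7_WT replicate 2 was the highest of the day 7 libraries, and still more than 10 times below the lowest clone. Dppa5a, an RNA-binding protein of early embryos and ESCs, was at 462, 1627 and 815 at day 7 and at 28120, 29960 and 40082 in iPSCs (log2FC 5.08, SE 0.54, FDR 2.51e-20). Eras, an ESC-specific Ras, rose from 21.7 ± 2.88 to 738 ± 140 (log2FC 5.09), and Fgf4, the autocrine FGF of ESCs, from 648 ± 127 to 6151 ± 179 (log2FC 3.25). Lin28a, an RNA-binding blocker of let-7 maturation, changed less, from 4723, 4377 and 4510 to 11482, 12834 and 15856 (log2FC 1.56, FDR 2.33e-47).

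A pair of members of the list went down. Piwil2, a PIWI-clade protein of the germline, was at 596, 669 and 411 at day 7 and at 316, 219 and 135 in iPSCs (log2FC -1.32, FDR 1.24e-07), and Alpl, the tissue-nonspecific alkaline phosphatase used to stain colonies, was at 2739, 3864 and 5002 and then at 1870, 1448 and 2475 (log2FC -1.0, FDR 0.0018). The call for Alpl was lost with edgeR and with other size factors. Lefty2, a Nodal inhibitor, spread from 1365 to 3109 at day 7 and from 863 to 3561 in the clones and was not called (log2FC -0.07, FDR 0.881).

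None of the 4 transgene factors was higher in iPSCs. Counts of Pou5f1, Sox2, Klf4 and Myc at day 7 include transcripts of the induced cassette, which cannot be separated from the endogenous genes in these tables. Pou5f1 was at 43534, 43216 and 48060 at day 7 and at 32728, 44550 and 37292 in iPSCs (log2FC -0.23, FDR 0.0362), and Sox2 differed by -0.19 (FDR 0.285), and neither was called. Klf4 fell from 23314, 19396 and 24234 to 1969, 4672 and 2923 (log2FC -2.81, SE 0.18, FDR 1.85e-52). Myc fell from 19366, 16649 and 20383 to 1143, 2030 and 1198 (log2FC -3.69, SE 0.19, FDR 9.18e-82). Control ESCs held 3737 for Klf4 and 1101 for Myc on average.

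**Figure D2:**
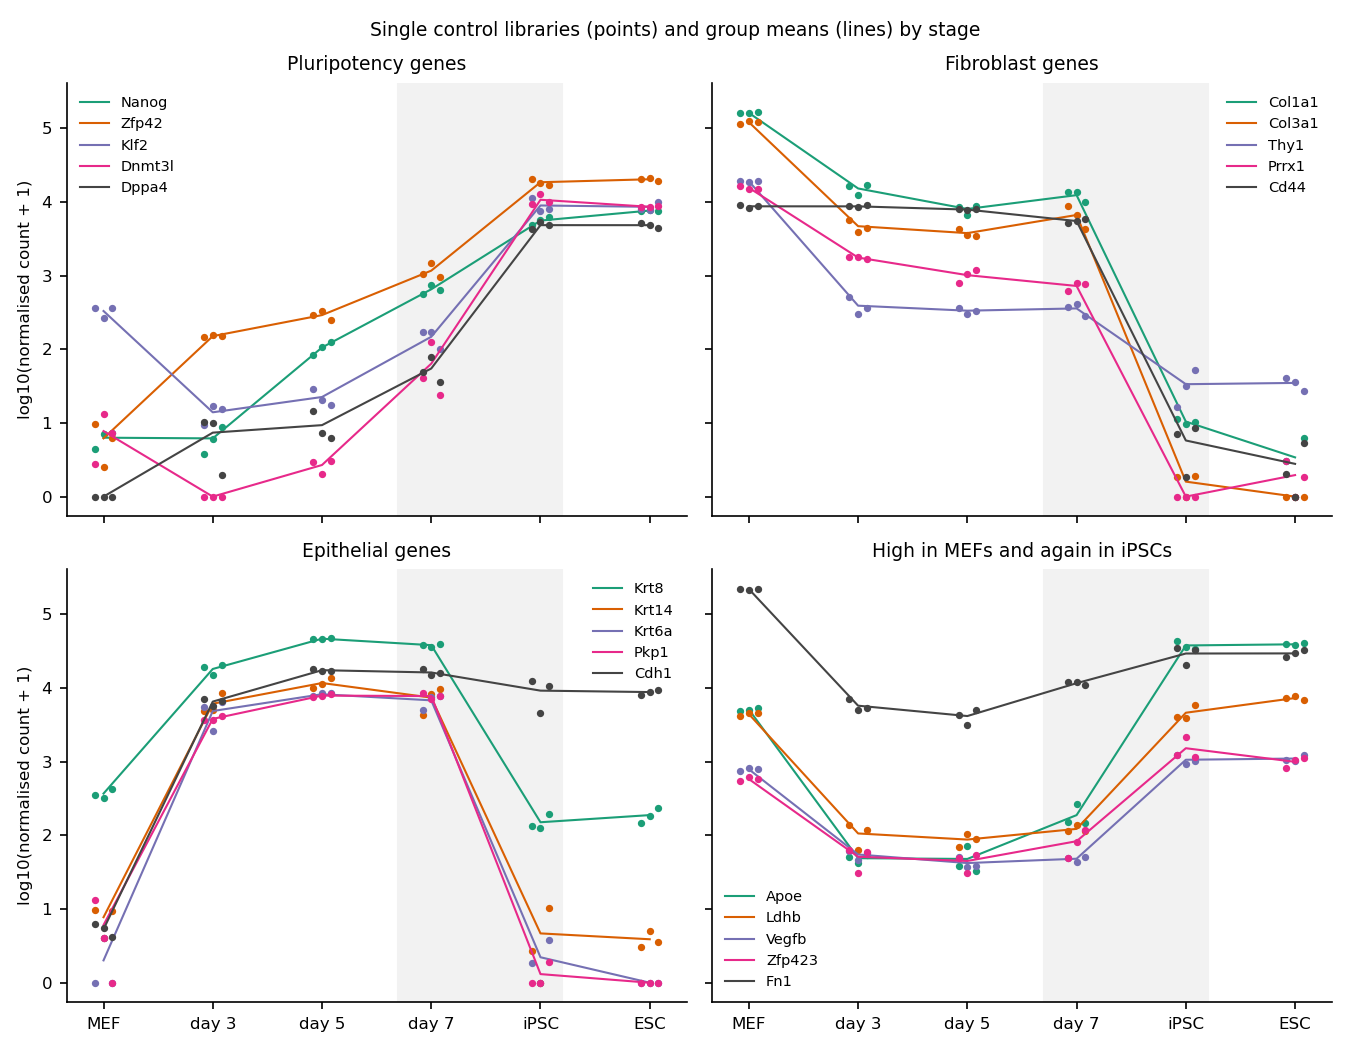
Normalised counts (y axis, log10 of the count plus 1) of 20 genes in single control libraries (points) and group means (lines) from MEFs through days 3, 5 and 7 to iPSCs and ESCs, with day 7 and iPSCs shaded. Zfp42 and Nanog climbed before day 7, Klf2, Dnmt3l and Dppa4 stood at 146, 62.7 and 53.7 at day 7 and at 8917, 10654 and 4822 in iPSCs, and Krt8, Krt14, Krt6a and Pkp1 lay higher on days 3 to 7 than in MEFs, iPSCs or ESCs.

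The 10 genes with the largest rise among those at a mean of 1000 or more in iPSCs and with no overlap between groups were Ina, 2410141K09Rik, Trap1a, Ephx2, Hsf2bp, Mcf2, Apoe, Rbmxl2, Grik3 and Dnmt3l, all of them ESC-associated, that is, higher in control ESCs than in control MEFs. Ina (chr19:47014698-47025327), encoding the neuronal intermediate filament protein alpha-internexin, was at 3.04, 0 and 3.09 at day 7 and at 2512, 3137 and 2682 in iPSCs (log2FC 10.42, SE 0.61, FDR 3.01e-63). It overlaps Nt5c2 on the other strand, as Hsf2bp does Rrp1b, Dnmt3l does Aire and Eras does Pcsk1n. Trap1a, the P1A tumour antigen, went from 3.04, 9.06 and 6.17 to 2182, 2695 and 2194 (log2FC 8.59), and Hsf2bp (chr17:31944769-32036349), a BRCA2-binding factor of meiotic recombination, from 5.07, 8.06 and 5.14 to 1596, 1578 and 1696 (log2FC 8.06, SE 0.36, FDR 3.85e-109). Both were near the limit of 3 counts in every day 7 library. Apoe (chr7:19696109-19699188), apolipoprotein E, was at 152, 265 and 144 at day 7 and at 43504, 36127 and 33396 in iPSCs (log2FC 7.65, SE 0.19). Apoe had been at 5088 on average in MEFs and at 47.9 on day 3, and Grik3 likewise at 101 in MEFs and 3.51 on day 3. Mcf2, Rbmxl2, a testis RNA-binding protein, Grik3, a kainate receptor subunit, and Ephx2, the soluble epoxide hydrolase, rose with log2FC of 7.44 to 8.45.

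The promoters of 2 genes from each end of the list are shown, as RefSeq has them for GRCm38.p6. They let the start regions of genes near 0 at day 7 be read beside those of genes near 0 in iPSCs. Only promoters that held a match to a searched motif were eligible, so that the presence of a match in each was fixed in advance. Each runs 5′ to 3′ on the strand of the gene, from 250 bases before to 50 after the RefSeq start (which for Hsf2bp lies inside the gene bounds given above), and the bases in capitals match a searched motif. In Ina (chr19:47014431-47014730, plus strand) they match the TEAD motif GGAATG on the opposite strand, and in Hsf2bp (chr17:32034459-32034758, minus strand) the E2F6-type motif GCGGGAA on the opposite strand. In Col3a1 (chr1:45311288-45311587, plus strand), a fibrillar collagen gene described below, they match the TEAD motif on the opposite strand and the octamer ATGCAAAT. In Vtcn1 (chr3:100825209-100825508, plus strand), an immune checkpoint ligand of the B7 family, they match the AP-1 motif TGANTCA.
Ina: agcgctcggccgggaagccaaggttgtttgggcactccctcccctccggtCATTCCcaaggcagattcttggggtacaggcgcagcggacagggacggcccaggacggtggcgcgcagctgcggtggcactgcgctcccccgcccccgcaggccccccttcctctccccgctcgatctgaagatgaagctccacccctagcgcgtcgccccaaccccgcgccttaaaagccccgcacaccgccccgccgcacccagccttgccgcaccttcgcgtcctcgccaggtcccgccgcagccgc
Hsf2bp: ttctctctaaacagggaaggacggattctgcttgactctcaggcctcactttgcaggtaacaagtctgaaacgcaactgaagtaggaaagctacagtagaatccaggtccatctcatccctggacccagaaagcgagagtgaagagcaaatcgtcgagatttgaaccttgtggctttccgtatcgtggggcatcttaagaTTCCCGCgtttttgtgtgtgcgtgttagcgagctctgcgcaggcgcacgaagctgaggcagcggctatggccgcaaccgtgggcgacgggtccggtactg
Col3a1: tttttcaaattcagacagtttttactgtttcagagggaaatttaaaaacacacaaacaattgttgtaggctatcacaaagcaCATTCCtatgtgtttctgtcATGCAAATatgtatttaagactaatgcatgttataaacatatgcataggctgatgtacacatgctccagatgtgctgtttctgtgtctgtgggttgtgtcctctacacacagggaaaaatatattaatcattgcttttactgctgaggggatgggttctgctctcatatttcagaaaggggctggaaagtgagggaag
Vtcn1: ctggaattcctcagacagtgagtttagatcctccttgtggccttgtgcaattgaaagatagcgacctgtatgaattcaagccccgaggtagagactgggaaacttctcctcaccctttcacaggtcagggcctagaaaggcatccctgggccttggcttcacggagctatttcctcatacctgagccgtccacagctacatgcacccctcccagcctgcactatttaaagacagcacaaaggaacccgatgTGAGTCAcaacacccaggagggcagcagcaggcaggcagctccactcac

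The windows held 32 CpG dinucleotides in Ina, 20 in Hsf2bp, none in Col3a1 and 5 in Vtcn1. Those of 2410141K09Rik, which rose, and 4930550L24Rik, which fell, held 5 and 9. In these few windows CpG number did not separate rising from falling genes, and it was not compared over all called genes. Over 16542 promoters of the same length, on both strands, the TEAD motif was present in 12.9%, the E2F6-type motif in 7.47%, the AP-1 motif in 5.80% and the octamer in 1.38%. These shares cannot be set against the printed promoters, which were chosen for holding a match. A match is a match of letters and shows no binding. RefSeq promoters were matched for 59.6% of the genes called higher and for 68.1% of those called lower, which is too few to set the motif shares of the called genes against each other.

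Germline genes were among the lists with most members higher, with 17 of 20 higher, 1 lower and a median log2FC of 4.42, or 4.02 with members at 0 taken at their bound. Hormad1, an axial element protein of meiotic chromosomes, was at 0 in all 3 day 7 libraries and at 147, 177 and 398 in iPSCs, at least 78.9-fold higher. Mael, of the piRNA pathway, was at 0 and then at 66.5, 86.1 and 211, at least 39.7-fold higher, and Dazl, a germ cell RNA-binding protein, was at 0 and then at 68.2, 115 and 124, at least 33.7-fold higher. Bounds are taken over 3 counts in each library. Sycp3, of the synaptonemal complex, rose from 7.10, 26.2 and 9.26 to 847, 780 and 1338 (log2FC 6.12, FDR 1.51e-49). Tdrd1, a Tudor protein of germ granules, went the other way, from 193, 211 and 259 to 30.2, 31.9 and 19.5 (log2FC -3.02, FDR 7.21e-51). Of the 8 Prame family genes, 6 were higher and none lower, with a median log2FC of 3.66, or 1.78 with bounds.

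The two-cell-like genes, which mark a rare transient state in ESC cultures, were higher for 10 of 16 members and lower for 2, and their summed level was high in 2 of the 3 clones only. Summed over the list, the day 7 libraries held 93.6 to 135 and the clones 13.8 to 1755. Zscan4c was at 0, 0 and 2.06 at day 7 and at 320, 0.861 and 310 in clones 1, 2 and 3, so that clone 2 was as low as day 7. The copies of Zscan4 are near-identical, and reads may have been split between them. Zfp352, a retrogene of cleavage embryos, fell from 29.4, 32.2 and 32.9 to 2.59, 0.861 and 0 (log2FC -4.75, FDR 2.53e-07).

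Chromatin factors moved in part. Of 11 DNA methylation writers and erasers, 5 were higher and 2 lower (median log2FC 0.76). Tet1 (chr10:62804570-62908996), a 5-methylcytosine dioxygenase, rose from 910, 1445 and 895 to 19345, 20228 and 17494 (log2FC 4.13, SE 0.18, FDR 4.14e-116). Its relative Tet3 fell from 2141, 1691 and 1911 to 472, 421 and 323 (log2FC -2.24, FDR 4.73e-45), and Tet2 was not called (log2FC 0.65). Dnmt3b, a de novo methyltransferase, rose from 364, 451 and 427 to 5331, 5819 and 8265 (log2FC 3.97, FDR 1.37e-59), whereas Dnmt3a was at 4370 ± 479 and 3998 ± 308 and was not called. Trim28 (KAP1), the corepressor of KRAB zinc finger proteins, was at 13145, 12572 and 12844 and rose to 49733, 59129 and 59343 (log2FC 2.12, SE 0.06, FDR 1.97e-245), and it had been at 13264 in MEFs.

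Of 12 PRC2 genes, 7 were higher and none lower, with a median log2FC of 1.41. The accessory subunits Mtf2 and Jarid2 were 2 of them. Mtf2 rose from 1529, 1861 and 1512 to 10405, 11192 and 12545 (log2FC 2.80, SE 0.08, FDR 6.68e-293), and Jarid2 from 2817, 3301 and 2947 to 18431, 18944 and 16305 (log2FC 2.57, FDR 2.55e-124). The core subunit Suz12 rose with a log2FC of 1.32 (FDR 5.19e-101), and the catalytic subunit Ezh2, at 3560 ± 79.3 and 6375 ± 390, stayed under the fold threshold (log2FC 0.84, FDR 2.67e-33). Of 15 BAF chromatin remodeler subunits 4 were higher and 1 lower. That one, the ATPase Smarca2 (Brm), fell from 1329, 1269 and 1291 to 25, 31 and 26 (log2FC -5.57, SE 0.26, FDR 4.60e-100), while the other ATPase, Smarca4, was not called. Of 11 enzymes of H3K9 and H3K79 methylation 3 were higher and 1 lower, the last being the H3K9 methyltransferase Suv39h1 (log2FC -1.82, FDR 8.36e-35).

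Receptors, ligands and feedback targets of LIF, FGF and BMP signalling were higher for 9 of 20 genes and lower for none (median log2FC 0.70). Among receptors, Lifr rose from 519, 530 and 572 to 2890, 3647 and 2401 (log2FC 2.46, FDR 3.19e-47) and Fgfr2 from 32.5, 27.2 and 18.5 to 393, 386 and 763 (log2FC 4.30, FDR 1.88e-31). The ligand Bmp4 rose from 58.8, 120 and 48.4 to 1266, 2087 and 965 (log2FC 4.25, FDR 1.10e-29). Feedback inhibitors and targets of ERK signalling, Spry4, Dusp6 and Etv5, rose with log2FC of 3.19, 2.63 and 2.37. The BMP target Id1 (log2FC 0.47) and the LIF target Socs3 (log2FC 0.06) were not called.

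Of 16 lineage and primed-state genes, 8 were higher and 5 lower. Otx2, a factor of the exit from naive pluripotency, rose from 51.7, 84.6 and 20.6 to 969, 840 and 1339 (log2FC 4.33, FDR 4.03e-21), and Pou3f1 (Oct6) from 4.06, 2.01 and 2.06 to 112, 186 and 375 (log2FC 6.37, FDR 5.47e-21). Sox1, a neural factor, was at 327, 563 and 70.5 in the clones and overlapped the day 7 range of 60.7 to 122. Those that fell included the endoderm factors Gata4, from 360, 450 and 638 to 98.4, 43.1 and 39.9 (log2FC -2.99, FDR 1.43e-17), and Foxa2 (log2FC -3.35), and Elf5, a trophoblast factor, which was at 69.0, 97.7 and 77.2 at day 7 and at 0 in every clone, at least 30.6-fold lower.

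Cell cycle genes moved in both directions. Of 24 cell cycle and replication genes 12 were higher and 4 lower (median log2FC 0.85). Ccne1, cyclin E1, rose from 437, 654 and 571 to 4558, 6806 and 5733 (log2FC 3.36, SE 0.14, FDR 6.12e-121) and Mybl2, a factor of G2/M transcription, from 6226, 5353 and 4700 to 28620, 27336 and 29570 (log2FC 2.39, FDR 7.23e-86). D-type cyclins fell, with Ccnd2 from 10630, 9767 and 9381 to 65.6, 187 and 82.6 (log2FC -6.47, SE 0.24, FDR 2.56e-158) and Ccnd1 from 12451, 10706 and 11646 to 1008, 1953 and 2350 (log2FC -2.71, FDR 1.89e-15), and Ccnd3 was not called. The proliferation marker Mki67 was at 6465, 5282 and 5285 and at 10273, 6714 and 7040 and was not called (log2FC 0.50, FDR 0.225). Of 20 p53 and cell cycle inhibitor genes, 2 were higher, 7 lower and 11 not called. Cdkn1a (p21, chr17:29090976-29100727) fell from 17579, 17164 and 19152 to 464, 632 and 666 (log2FC -4.94, SE 0.14, FDR 4.84e-259), and Cdkn2a, the Ink4a/Arf locus, from 1329, 1253 and 1103 to 95, 49.9 and 49.2 (log2FC -4.24, FDR 1.02e-97). The other members called lower were Cdkn2b, Btg2, Phlda3, Sesn1 and Ccng1. Of these, Btg2 fell from 4315, 5049 and 4911 to 217, 562 and 584. Trp53 itself rose (log2FC 1.35, FDR 7.53e-60), and its targets Mdm2, Bax and Pmaip1 were not called.

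Of the 19 rows of glycolysis genes, 10 were higher and 1 lower (median log2FC 1.01), Aldoa having 2 rows. Slc2a3 (GLUT3), a high-affinity glucose transporter, rose from 5246, 5835 and 5633 to 32689, 26941 and 32581 (log2FC 2.46, FDR 1.28e-105), and Pkm, pyruvate kinase, from 40037 ± 2359 to 102399 ± 4203 (log2FC 1.35). Ldhb, the heart-type lactate dehydrogenase subunit, rose from 115, 136 and 113 to 4061, 3941 and 5807 (log2FC 5.25, SE 0.32, FDR 6.60e-58), whereas Ldha was not called (log2FC 0.20). Hk1, hexokinase 1, fell from 4793, 4070 and 4290 to 1182, 673 and 1013 (log2FC -2.20, FDR 7.54e-42). Of 85 cytosolic ribosomal protein genes 4 were higher and none lower (median log2FC 0.30), and these were the paralogs Rpl10l, Rpl39l, Rpl3l and Rps4l.

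**Figure D3:**
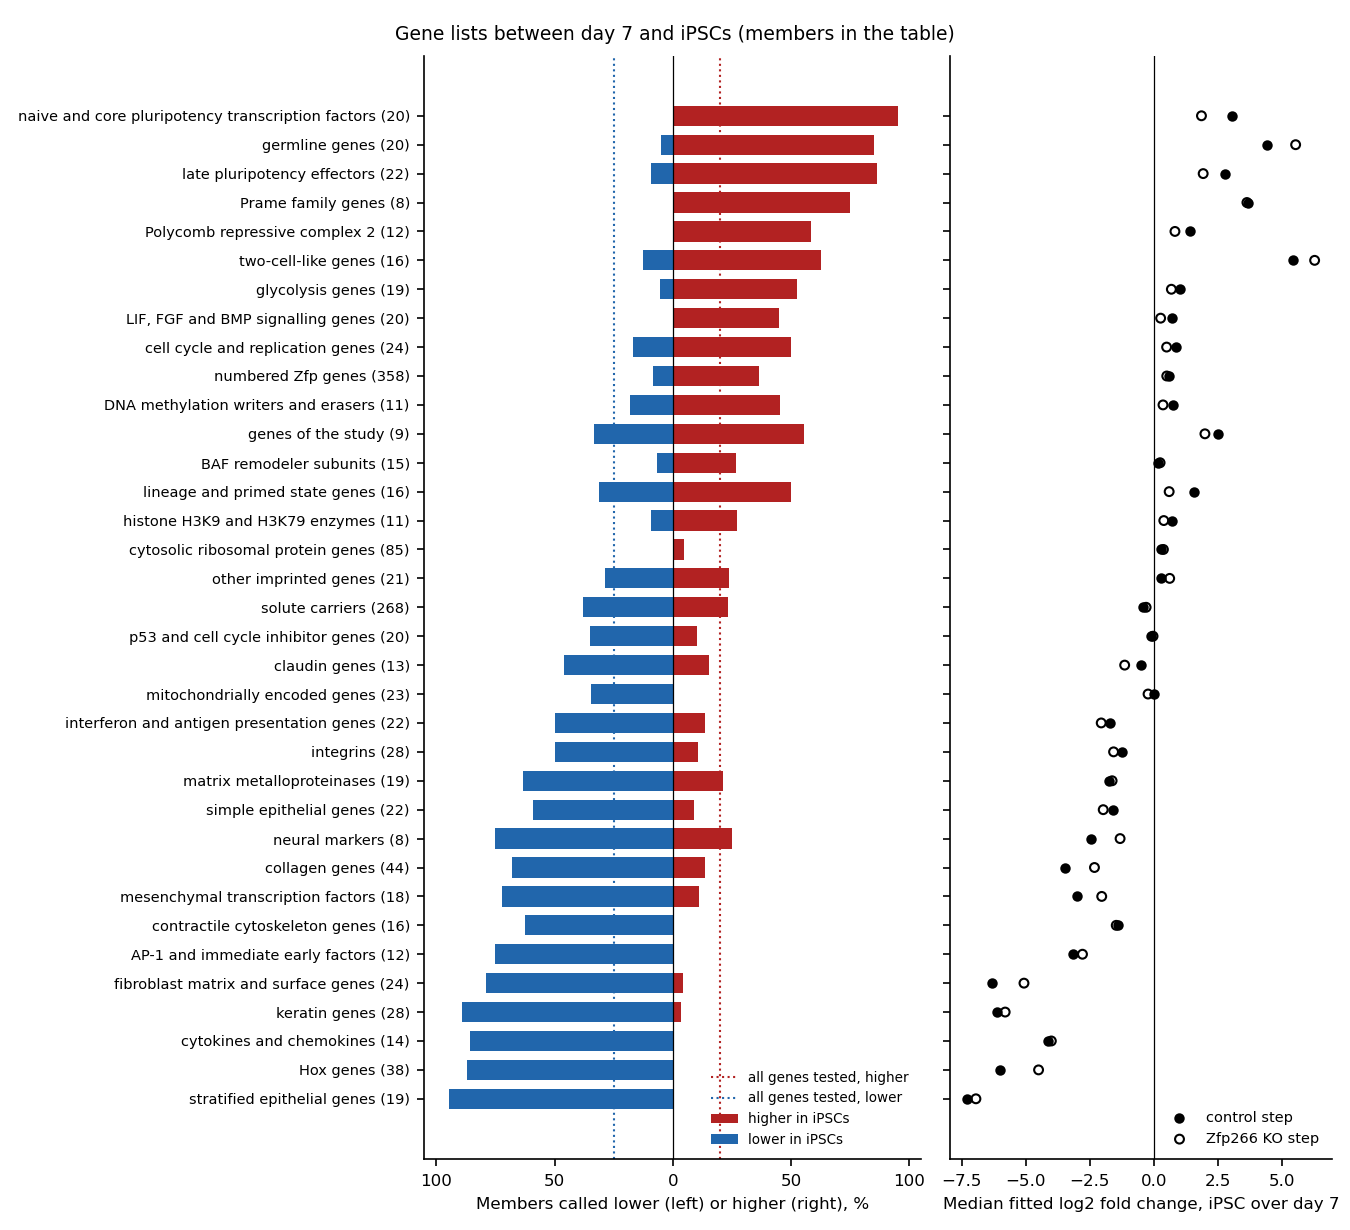
Share of each gene list with at least 8 rows that was called higher (red, right) or lower (blue, left) in iPSCs, in %. Numbers of rows are in brackets, and dotted lines mark the shares over all genes, 20% and 25% (left panel). The right panel gives the median fitted log2FC of the list in the control step (filled) and in the Zfp266 KO step (open). Smaller lists are not shown. Naive factors were 95% higher and stratified epithelial genes 94.7% lower.

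The day 7 libraries held fibroblast transcripts that were mostly much lower in the clones. The day 7 cells had been grown with wild-type MEFs before the sort, and carry-over of these MEFs was not tested. Of 24 fibroblast matrix and surface genes, 19 were lower, 1 was higher and 3 were not called, and Pdgfra had no FDR, being set aside by the outlier filter of DESeq2. The median log2FC was -6.33, or -5.06 with members at 0 taken at their bound. Col1a1 (chr11:94936224-94953042), the main chain of type I collagen, was at 13488, 13601 and 9848 at day 7 and at 10.4, 8.61 and 9.28 in iPSCs (log2FC -10.35, SE 0.48, FDR 1.16e-100). In MEFs it had been at 160929 on average, so that the day 7 level lay between those of the end points. Col3a1 (chr1:45311538-45349706), whose promoter is printed above, was at 8893, 6704 and 4279 at day 7 and had 2 counts in all 3 clones together, a ratio of 11273 (95% exact interval 3120 to 93088). Cd44, the hyaluronan receptor used to stage reprogramming, fell from 5109, 5486 and 5843 to 6.05, 0.861 and 7.42 (log2FC -10.18, SE 0.43, FDR 4.28e-122), after a mean of 8687 in MEFs. Thy1, another staging marker, had dropped from 19010 in MEFs to 376, 416 and 278 at day 7 and was at 15.5, 31.0 and 51.0 in iPSCs (log2FC -3.46, FDR 1.13e-27).

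The exception was Fn1, fibronectin, at 219291 in MEFs, which rose from 11913, 11978 and 10879 at day 7 to 34767, 20754 and 32331 in iPSCs (log2FC 1.34, FDR 5.89e-09). Vim, vimentin, was at 3680, 5618 and 6965 at day 7 and at 2207, 8524 and 3692 in the clones and was not called (log2FC -0.17, FDR 0.697). Over all 44 collagen genes 30 were lower and 6 higher, with a median log2FC of -3.48 (-2.84 with bounds). Col18a1, a basement membrane collagen, was among the higher ones (920 ± 291 to 12169 ± 2564, log2FC 3.73, FDR 4.71e-17). Of 19 matrix metalloproteinases 12 were lower and 4 higher, and of 28 rows with integrin symbols, a few of which are integrin-binding proteins, 14 were lower and 3 higher.

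Mesenchymal transcription factors were lower for 13 of 18 and higher for 2, with a median log2FC of -3.02 (-2.81 with bounds). Prrx1 (chr1:163245119-163313710), a homeobox factor of limb and skin mesenchyme, was at 624, 779 and 758 at day 7 and at 0 in every clone, at least 272-fold lower. Tbx15 fell from 597, 762 and 813 to 20.7, 32.7 and 10.2 (log2FC -5.08, FDR 1.65e-82), and Runx1 from 606 ± 34.1 to 9.35 ± 4.59 (log2FC -6.02). Snai1, the repressor of E-cadherin, fell from 223, 206 and 226 to 76.0, 35.3 and 75.2 (log2FC -1.82, FDR 2.27e-21), while Zeb1, which acts on the same target, rose from 119, 159 and 150 to 359, 518 and 336 (log2FC 1.5, FDR 2.38e-11), and Zeb1 overlaps Gm10125 on the other strand. Hox genes, which record the body position of the fibroblasts, were lower for 33 of 38 and higher for none, with a median log2FC of -6.0 (-4.86 with bounds). Hoxa9 fell from 586, 711 and 843 to 1.73, 0 and 2.78 (log2FC -8.92, FDR 4.38e-38), and Hoxc6 was at 55.8, 89.6 and 65.8 and then at 0 in every clone, at least 26.5-fold lower.

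AP-1 and immediate early factors were lower for 9 of 12 and higher for none (median log2FC -3.15). Jun (chr4:95049034-95052222) fell from 2747, 2508 and 2415 to 99.3, 147 and 144 (log2FC -4.30, SE 0.24, FDR 3.17e-69), with Junos on its other strand. Fosl2, a Fos-related partner, fell from 2374, 2065 and 2585 to 11.2, 25 and 39 (log2FC -6.56, SE 0.21, FDR 1.30e-204). Atf3, a stress-induced factor, fell from 956, 1005 and 1244 to 6.91, 6.89 and 8.35 (log2FC -7.18, FDR 1.32e-95). Unlike Jun and Fosl2, which were at 6285 and 7039 in MEFs, Atf3 had been at 81.0 in MEFs. Of 16 contractile cytoskeleton genes 10 were lower and none higher (median log2FC -1.41), among them Acta2, smooth muscle actin, from 871, 1327 and 1278 to 0, 8.61 and 6.49 (log2FC -7.85, FDR 8.25e-35).

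Epithelial genes divided. Of 22 simple epithelial genes 13 were lower and 2 higher (median log2FC -1.61). Neither of the main epithelial adhesion molecules was called. Cdh1, E-cadherin, was at 17870, 14927 and 15783 at day 7 and at 12348, 4595 and 10600 in iPSCs (log2FC -0.82, FDR 0.000254), and Epcam was at 2691, 2708 and 2377 and at 3728, 3416 and 3506 (log2FC 0.45, FDR 0.151). Krt8 (chr15:101996698-102004482), the keratin of simple epithelia, fell from 38218, 35929 and 39874 to 132, 123 and 193 (log2FC -7.99, SE 0.44, FDR 4.68e-73), and Dsp, desmoplakin, from 50990, 44662 and 53572 to 478, 229 and 638 (log2FC -6.79, SE 0.33, FDR 2.52e-94). Grhl2, a factor of epithelial enhancers, rose from 130, 98.7 and 122 to 1130, 1203 and 1854 (log2FC 3.58, FDR 6.19e-27).

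Stratified epithelial genes, a list drawn largely from skin-like epithelia, were lower for 18 of 19 and higher for none. Their median log2FC was -7.29 (-6.12 with bounds). Trp63, the remaining member of the list, had no row in the count table. Keratins were lower for 25 of 28 and higher for 1, with a median log2FC of -6.13 (-5.21 with bounds). Krt6a (chr15:101689910-101694307), a keratin of activated epidermis, was at 4984, 7615 and 7737 at day 7 and at 0.864, 0 and 2.78 in iPSCs (log2FC -12.49, SE 0.76, FDR 1.28e-59). Krt14, of basal keratinocytes, fell from 4243, 8346 and 9556 to 1.73, 0 and 9.28 (log2FC -11.01, SE 0.56, FDR 4.39e-84), and Krt17 from 11213, 17659 and 19109 to 347, 148 and 392 (log2FC -5.76). On average MEFs held 1.01 for Krt6a, 6.74 for Krt14 and 0 for Krt17. Pkp1 (chr1:135871395-135919207), plakophilin 1 of desmosomes, was at 8504, 7032 and 7722 at day 7 and had 1 count in the 3 clones together, a ratio of 26330 (95% exact interval 4725 to 1.04e+06). D7_WT replicate 1 was the lowest day 7 library for the 3 keratins but the highest for Pkp1.

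Pkp1 and Col3a1 headed the 10 largest falls among genes at 1000 or more at day 7, the others being Bgn, Vtcn1, Krt6a, 4930550L24Rik, Mal, Krt80, Krt6b and Stra6. Bgn, the matrix proteoglycan biglycan, was at 1548, 1616 and 1084 at day 7 and at 0 in every clone, at least 534-fold lower. Vtcn1 was at 1013, 1102 and 1116 and at 0, at least 406-fold lower. Mal, a proteolipid of apical transport, fell from 7500, 8928 and 8761 to 3.45, 0.861 and 0 (log2FC -12.48, SE 0.65, FDR 6.79e-80). Krt80, Krt6b, 4930550L24Rik and Stra6, the retinol transporter, each had 2 counts in the clones together, with ratios of 5372 (1487 to 44363), 5209 (1442 to 43018), 5754 (1592 to 47519) and 4621 (1279 to 38166). Among genes that were not MEF-associated, the 5 largest falls were those of Krt6a, Krt6b, 4930550L24Rik, Mal and the pseudogene Gm11597, which was at 787, 1292 and 1057 at day 7 and had 1 count in the clones, a ratio of 3552 (637 to 140358). Krt6a and Krt6b are close paralogs, and reads may have been split between them.

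Of 14 cytokines and chemokines 12 were lower and none higher, with a median log2FC of -4.14 (-4.38 with bounds), and Cxcl5 had no FDR. Ccl7, a monocyte chemokine, was at 712, 672 and 554 at day 7 and at 0 in every clone, at least 243-fold lower. Of 22 interferon and antigen presentation genes 11 were lower and 3 higher (median log2FC -1.70, or -1.43 with bounds). B2m, the light chain of MHC class I, fell from 5792, 5464 and 6488 to 587, 202 and 260 (log2FC -4.08, FDR 4.35e-79), and H2-D1, a heavy chain, from 4946, 4303 and 4594 to 373, 241 and 247 (log2FC -4.01, FDR 2.02e-161). Ifitm3, an interferon-induced membrane protein also used by pluripotent cells, rose from 277, 409 and 308 to 851, 1268 and 923 (log2FC 1.61, FDR 4.96e-24).

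Markers of other cell types moved with these groups, and their part in the results was not tested. Of 7 macrophage markers 5 were lower and none higher, with summed levels of 366 to 729 at day 7 and 192 to 330 in iPSCs, of which Cd68 made up 268 to 317 and 181 to 328. Without D7_WT replicate 3, where Lyz2 was at 330 against 97.4 and 66.5, 3 of these markers were called. Lyz2 was at 0 in every clone. Endothelial markers summed to 1505 to 1836 at day 7 and 445 to 701 in iPSCs, with 3 of 7 lower and none higher. Most of the day 7 sum came from Tie1 and Tek, with 2723 and 1868 raw counts over the 3 libraries. Esam had 225, Kdr 63, Erg 35, Cdh5 8 and Emcn 0. Neural markers summed to 31998 to 33448 and 5379 to 8920, with 6 of 8 lower and 2 higher. Stmn2, a stathmin of neurons, fell from 16580, 16344 and 16824 to 2612, 5501 and 4477 (log2FC -1.98, FDR 3.58e-26), Tubb3 fell with a log2FC of -3.26, and Neurod1 rose from 1.01, 3.02 and 5.14 to 89.8, 623 and 614 (log2FC 7.18, FDR 3.92e-18). Muscle and trophoblast markers were low throughout, at 114 to 295 and 161 to 171 summed at day 7 and 151 to 203 and 41.5 to 73.2 in iPSCs.

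Imprinted genes of the Dlk1-Dio3 region fell into 2 sets. The maternally expressed noncoding RNAs Meg3, Rian and Mirg were higher and the paternally expressed Dlk1, Rtl1 and Dio3 lower. Meg3 (chr12:109541001-109571726) was at 916, 1038 and 694 at day 7 and at 3826, 11664 and 7586 in the clones (log2FC 3.12, SE 0.65, FDR 3.93e-06), and ESCs held 6561 on average. Dlk1 fell from 609, 274 and 480 to 27.6, 96.4 and 92.8 (log2FC -2.65, FDR 3.61e-13), after 20756 in MEFs. For Meg3, clone 1 was the lowest and still above every day 7 library. Rtl1 has microRNA genes on its other strand. Of 21 other imprinted genes 5 were higher, 6 lower and 10 not called, and Igf2 fell from 530, 295 and 362 to 1.73, 3.44 and 2.78 (log2FC -7.22, FDR 9.34e-38).

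Among zinc finger genes named by number, 130 of 358 were higher (36.3%) and 30 lower (8.38%), against 20% and 25% of all genes, with a median log2FC of 0.60. Zfp266, the gene knocked out elsewhere in the study and intact here, was at 1437, 1432 and 1535 at day 7 and at 2529, 2817 and 2594 in iPSCs (log2FC 0.85, SE 0.08, FDR 1.44e-28), under the fold threshold. Among other families, claudins were higher for 2 and lower for 6 of 13, and Rhox genes higher for 2 and lower for 1 of 5. Solute carriers were higher for 62 and lower for 102 of 268. Of 23 mitochondrially encoded genes 8 were lower and none higher, all of them ribosomal or transfer RNA genes. Of 6 sex chromosome genes, the antisense RNA Tsix rose from 0, 4.03 and 1.03 to 567, 468 and 349 (log2FC 8.09, FDR 1.61e-30) while Xist, on its other strand, was not called, and the Y-linked demethylase Kdm5d fell from 232, 313 and 323 to 2.59, 7.75 and 10.2 (log2FC -5.41, SE 0.37, FDR 4.63e-47). The Y-linked Uty, at 812, 878 and 735 and at 1027, 1037 and 1233, was not called, and control ESCs held 6.88 for Kdm5d. Of 7 sort and staging surface genes, Icam1, which late intermediates gain, rose from 510, 525 and 680 to 1373, 2518 and 2631 (log2FC 1.93, FDR 9.80e-17), Cd44, Thy1, Nt5e and Itgb3 fell, and Cdh1 and Epcam were not called. Of 9 genes the study had followed in these samples, which is no independent evidence, 5 were higher and 3 lower, among them Tcl1, a coactivator of Akt (log2FC 2.49), and B3gnt3, a glycosyltransferase (log2FC -5.43).

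Most of the called genes also separated ESCs from MEFs in the matching direction. Genes were put into classes by the contrast of control ESCs with control MEFs, which shares no library with the day 7 comparison, and in which 55.4% of genes were called, 5565 (26%) higher in ESCs (ESC-associated) and 6302 (29.4%) lower (MEF-associated). Of the ESC-associated genes 2769 (49.8%) were higher in iPSCs than at day 7, and of the MEF-associated genes 3483 (55.3%) were lower. The rest of these classes had largely no call, 2369 and 2395 genes, while 427 ESC-associated genes were lower and 424 MEF-associated genes higher. Of all genes called higher, 64.7% were ESC-associated, 25.4% were in neither class and 9.91% were MEF-associated, and of all called lower, 64.9% were MEF-associated, 27.1% in neither class and 7.96% ESC-associated.

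**Figure D4:**
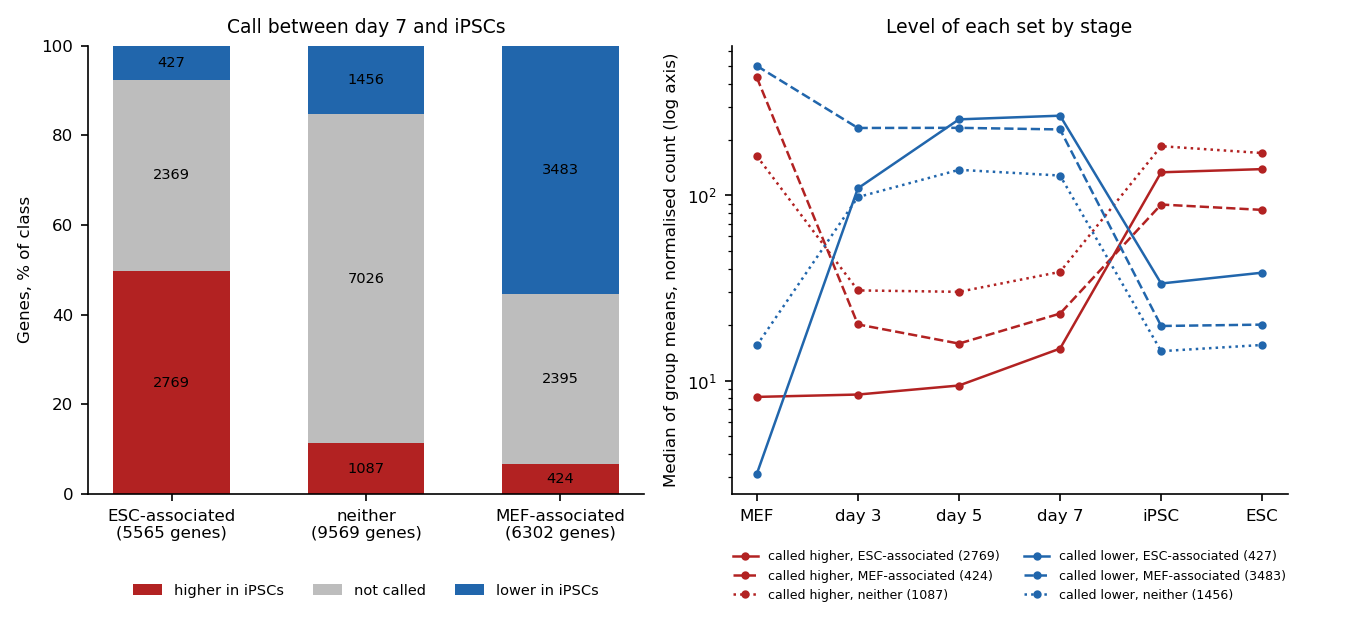
Share of each class (genes higher in ESCs, higher in MEFs, or neither) that was called higher, lower or not called between day 7 and iPSCs (left panel, % of class, with numbers of genes), and the median over the genes of each called set of the group mean (right panel, normalised count, log axis) from MEFs to ESCs. The 2769 ESC-associated genes called higher stood at a median of 14.9 at day 7 and 133 in iPSCs, and the 427 ESC-associated genes called lower at 269 at day 7 and 33.4 in iPSCs.

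At day 7 the ESC-associated genes that were still to rise stood at a median of 16.6% of their iPSC level, and 1066 of the 2769 (38.5%) were under 10% of it. Along the stages their median level was 8.15 in MEFs, 8.40 on day 3, 9.40 on day 5, 14.9 on day 7, 133 in iPSCs and 139 in ESCs. The MEF-associated genes that were still to fall stood at 500 in MEFs, 231, 232 and 227 on days 3, 5 and 7, 19.7 in iPSCs and 20 in ESCs. For these sets the end points were fixed by the calls, and only the day 3 and day 5 libraries entered neither call.

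The remaining sets did not run from one end to the other. The 424 MEF-associated genes called higher stood at 433 in MEFs, 20.1, 15.8 and 23.0 on days 3, 5 and 7, and 89.2 in iPSCs. In all, 69 of the 4280 genes called higher (1.61%) were over 10 times lower at day 7 than in both MEFs and iPSCs, each at 100 or more in those groups. Of the 5 genes with the largest rise outside the ESC-associated class, Ldhb stood at 4415 in MEFs, and Vegfb, a vascular growth factor, went from 786 in MEFs through 48.7, 42.3 and 50.4 at day 7 to 1219, 924 and 1033 in iPSCs (log2FC 4.49, SE 0.18, FDR 3.89e-134). Six4 (1385 in MEFs, log2FC 4.19), Fblim1 (4971, 4.08) and Zfp423 (579, 4.21) were likewise higher in MEFs and in iPSCs than at day 7. Conversely, 293 of the 5366 genes called lower (5.46%) were over 10 times higher at day 7 than in both MEFs and iPSCs. Each was at 100 or more at day 7. Highest at day 7 among them were Dsp, Krt8, Podxl, Myc, Krt17, Uchl1, Itgb4, Aldh3a1 and Mal. The Myc counts include transcripts of the induced cassette. Pkp1, Krt14, Krt6a and Sfn were also in this set. Itgb4, the hemidesmosome integrin, was at 767 in MEFs, 14779, 13242 and 14051 at day 7 and 275, 240 and 200 in iPSCs (log2FC -5.88, FDR 2.60e-60).

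Beside the 9646 genes called between day 7 and iPSCs, 35 of 12708 (0.275%) were called between control iPSCs and control ESCs, 19 (0.15%) higher and 16 (0.126%) lower in iPSCs, a contrast that shares the iPSC libraries. Dppa4 was at 4822 ± 546 in iPSCs and 4817 in ESCs and Zfp42 at 18428 ± 1816 and 20227. Some imprinted genes stood apart. H19 was at 3225, 927 and 442 at day 7, at 440, 304 and 981 in the clones and at 11, 10.1 and 20 in ESCs (iPSCs against ESCs FDR 3.88e-09, DESeq2), and Plagl1 at 143 to 298, 124 to 234 and 5.02 to 8.69. For both genes the clones overlapped day 7 and not ESCs. The count of 35 depended on single libraries, with 265 genes called without iPS_WT replicate 3, 14 without ESC_WT replicate 1, 18 without ESC_WT replicate 2 and 21 without iPS_WT replicate 1.

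The same step was measured in Zfp266 KO cells, whose 6 libraries are not shared with the control contrast. There 8317 genes (38.8%) were called, 4064 (19%) higher and 4253 (19.8%) lower. Of the 9646 genes called in control cells, 96.9% had the same sign in KO cells, 73.7% were called in the same direction and 24 in the opposite one. Over all 21436 genes, 86.7% had the same sign, and 37.9% were called in KO cells with the sign of the control step. The difference between the steps was tested directly by the interaction of stage and genotype, which was called for 1958 of 20604 genes (9.5%), with 624 (3.03%) more positive and 1334 (6.47%) more negative in control cells. For 1581 of the genes called in control cells the interaction was called, and in 1457 of these the KO step was the smaller one. Because these genes were chosen by their control values, this count is a description. Esrrb was at 1951 ± 151 at day 7 in control cells, and its KO step had a log2FC of 2.0 against 3.19 (interaction 1.18, FDR 3.88e-12). For Dppa4 the steps were 6.49 and 3.22 (interaction 3.27, FDR 2.05e-31), whereas for Hsf2bp they were 8.06 and 7.78 (interaction 0.28, FDR 0.73), for Krt6a -12.49 and -11.85 (FDR 0.78) and for Col1a1 -10.35 and -9.07 (FDR 0.17).

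The clones varied among themselves, with a variance between pairs of clones of 29.6 to 45.3 times that of counting, against 6.02 for D7_WT replicates 2 and 3, 42.3 and 44.0 for pairs with D7_WT replicate 1 and 6.46 to 14.5 for control ESCs. Of 12091 genes with a mean of 100 or more in iPS_WT, 20 differed at least 8 times between the highest and lowest clone (each plus 10), against 9 of 12464 in D7_WT, the 9 rows described above. For 15 of the 20, namely copies and pseudogenes of Zscan4, Gm5662 and the Gm4340 family, clone 2 was the low one. Gm4340, the gene of widest ratio, was at 468, 3.44 and 402 in clones 1, 2 and 3, at 168, 145 and 169 at day 7 and at 677, 865 and 619 in ESCs. Its relatives Gm21312, Gm21293, Gm8764 and Gm21304 differed from it by 1 count in the clones together and by 3 counts at day 7 (474 against 477). These are near-identical copies, and their counts are uncertain. Grb10, an imprinted adaptor of growth factor receptors, was at 103, 900 and 411 in the clones, below every day 7 library (8564, 8115 and 9134, log2FC -4.19) and every ESC library.

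**Figure D5:**
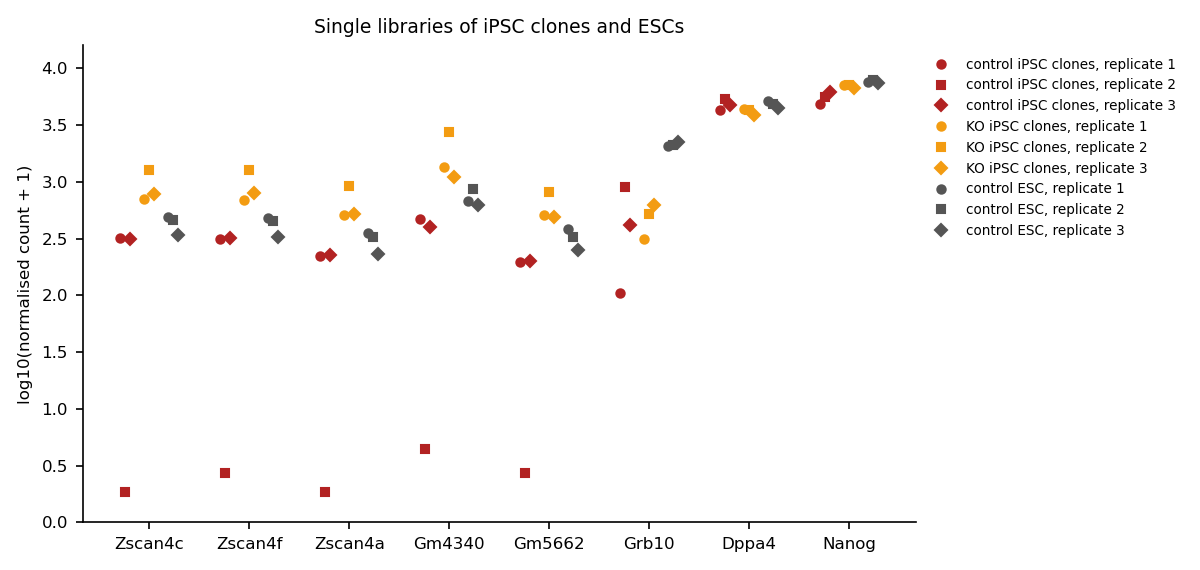
Normalised counts (y axis, log10 of the count plus 1) of 8 genes in single libraries of control iPSC clones (red), Zfp266 KO iPSC clones (orange) and control ESCs (grey), with the symbol giving the replicate. Clone 2 of the control iPSCs was at 0.861 for Zscan4c and 3.44 for Gm4340, where the other clones were at 310 to 468, and all 3 were close for Dppa4 and Nanog.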

How the data were processed

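Poly(A) RNA of 36 mouse libraries (12 groups of 3) was sequenced with a stranded kit. Adapters were trimmed with cutadapt, reads mapped with STAR to GRCm38.p6 and assigned to genes with Rsubread by the authors, who deposited raw read counts per gene. The annotation release and the strand setting are not given in the sources used here. A second deposited table holds a normalised signal, which equalled the counts over DESeq2 median-ratio factors. The authors' tables of KO against WT fold changes and their log values, corrected for preparation dates absent from the labels, were not used, so that dates and groups cannot be told apart.

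Counts of all 36 libraries were fitted with DESeq2 1.42.0 in R 4.3.3, with 1 factor of 12 levels and Wald tests. Genes were called at a Benjamini-Hochberg FDR under 0.05 and an absolute log2FC over 1. On simulated counts of 21442 genes for the day 7 to iPSC comparison, DESeq2 recovered 195 and edgeR 4.0.16 recovered 190 of 200 genes changed 4-fold, with 6 and 2 false calls. The simulation changed only these 200 genes, whereas 45% of genes were called in the data. It does not test scaling or false calls under so wide a change. Genes were located in GENCODE M21 (21417 of 21442 matched). Exons of Bmp4, Ccnd1, Ccnd2, Ccnd3, Cdkn1a, Dnmt3a, Dsp, Enox1, Ezh2, Fn1, Gbx2, Grhl2, H19, Hk1, Icam1, Igf2, Itgb4, Krt6a, Krt6b, Krt8, Krt80, Lin28a, Meg3, Mtf2, Neurod1, Nnat, Otx2, Plagl1, Pou3f1, Pou5f1, Runx1, Slco2a1, Smarca2, Suv39h1, Suz12, Sycp3, Tet2, Twist2, Aldoa and of genes marked in the text overlap a gene on the other strand, and their counts are uncertain to that extent. Zeros were bounded at 3 counts per library, and few counts given exact 95% intervals. Named were the 10 largest changes a side (5 a side outside the ESC- or MEF-associated class and for the interaction with genotype) among called genes without overlap and at 1000 normalised counts or more in the higher group, and members of the gene lists. The members and lists were chosen with earlier results of these data known. Listed genes without a row in the count table, such as Trp63 and Tnf, were left out of the list sizes. Alternatives were edgeR, TMM factors, a filter at 10 counts in 3 libraries, no independent filtering, other thresholds, only the groups compared, a replicate block and leaving out each library.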

Additional observations from a re-analysis of the deposited data

Results flagged for a closer look

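The step from day 7 to iPSCs differed between control and Zfp266 KO cells for 1958 genes, by the interaction of stage and genotype in DESeq2 (FDR under 0.05, absolute difference in log2FC over 1), with the log2FC more positive in control cells for 624 and more negative for 1334. The 10 genes below were taken by size from each end, and a positive difference means a more positive control step.

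On the negative side, Bmper, a BMP-binding secreted protein, differed by -6.16 (SE 1.39, FDR 0.000169). Bmper was at 989, 1024 and 1118 at day 7 and 0.864, 0 and 0.928 in iPSCs of control cells, and at 645, 699 and 725 and then 79.9, 0.868 and 3.03 in KO cells. One KO clone was thus high and the other 2 were near 0. Stra6 differed by -6.10 (SE 1.39, FDR 0.000192), with KO clones at 37.9, 1.74 and 4.04. Col1a2, the second chain of type I collagen, differed by -4.62 (SE 0.88, FDR 4.72e-06), with KO clones at 7.99, 4.34 and 58.6. Bgn differed by -4.01 (SE 1.40, FDR 0.0229), a fitted value that is no bound, since all control clones were at 0 and the KO clones at 2.0, 1.74 and 1.01. Slco2a1, a prostaglandin transporter, differed by -3.91 (SE 0.63, FDR 3.08e-08), with KO clones at 46.9, 22.6 and 6.06 and control clones at 0.864, 1.72 and 2.78.

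On the positive side, the KO cells were already higher at day 7. Gbx2 differed by 4.32 (SE 0.96, FDR 0.000134) and was at 46.2, 56.9 and 58.1 at day 7 in KO cells. Its mean was also higher in control than in KO iPSCs, at 1161 against 438. Dnmt3l differed by 3.87 (SE 0.64, FDR 1.06e-07), with day 7 KO libraries at 1201, 1186 and 713. Enpp3, an ectonucleotide pyrophosphatase, differed by 3.67 (SE 0.35, FDR 1.36e-22), with 183, 271 and 92.6 at day 7 in control and 2133, 2150 and 1126 in KO cells. 2410141K09Rik differed by 3.58 (SE 0.41, FDR 7.56e-16), with day 7 KO libraries at 64.3, 108 and 57.2. Enox1, a cell surface oxidase, differed by 3.54 (SE 0.31, FDR 7.46e-27), with 109, 151 and 92.6 at day 7 in control and 1134, 1101 and 726 in KO cells.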

How the results depend on the processing

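The 9646 calls between day 7 and iPSCs became 9738 with edgeR, 9696 with TMM factors, 9641 with the filter on low counts and 8971 with only the groups compared, and the share of calls that were higher moved by -3.70 to 4.30 percentage points. At an FDR under 0.05 alone the counts were 15754 for control cells, 14762 for KO cells and 4715 for the interaction, and with the fold threshold inside the Wald test 6400, 5129 and 140. Between iPSCs and ESCs, under alternatives chosen after seeing the data, the 35 calls became 407, 5, 17 with edgeR and 16 with only the groups compared. Leaving out 1 library at a time gave 9339 to 9496 calls for control cells, 8027 to 8132 for KO cells, 1608 to 2038 for the interaction, 11527 to 11723 between ESCs and MEFs and 14 to 265 between iPSCs and ESCs. It gave 3 to 6 for macrophage markers lower, with 3 without D7_WT replicate 3 and 6 without D7_WT replicate 1. Same-numbered libraries did not pair (correlations of deviations 0.024, 0.063 and -0.006 over 14637 genes), and the replicate block gave 9614 calls.

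Of 44 gene lists, 34 stayed within 1.5 times under every alternative run. With FDR alone, 10 H3K9 and H3K79 enzymes, 7 BAF subunits, 16 glycolysis rows, 3 sex chromosome genes, 220 numbered zinc finger genes and 70 ribosomal protein genes were higher. With the fold threshold in the test, 2 BAF subunits, 4 lineage genes, 5 glycolysis rows and 3 Prame genes were higher, and 3 macrophage markers and 3 mitochondrial genes lower. In the 250 bases before the start alone, shares of promoters were 6.76% for the SOX motif CATTGT, 3.57% for the KLF motif GGGTGTGG, 7.73% for the E-box CACGTG, 6.21% for the E2F6-type motif, 5.05% for AP-1, 11.2% for TEAD and 2.35% for the CRE TGACGTCA. With a pseudocount of 1, 22 genes varied among the clones and 10 at day 7. For single genes named in the text, 3551 of 3725 results under alternatives kept their direction and call, 149 lost the call, 25 gained one and 0 reversed. For the differences that changed, the cause was not tested.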

Other observations

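Small nucleolar RNA genes, which guide modification of ribosomal RNA, were higher for 45 of 64 genes and lower for none, against 20% and 25% of all genes, with a median log2FC of 1.88. The 45 lay on 18 chromosomes. Their levels were low, with a median of 5.77 at day 7 and 23.8 in iPSCs and no mean above 459, and what a poly(A) library captures of them was not tested.

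Zscan4f was at 315, 1.72 and 318 in control clones 1, 2 and 3, and its log2FC against day 7 was 9.77 without clone 2 and 8.76 to 8.78 without either of the others. Gm4340, which was not called with all libraries, was called without clone 2 (log2FC 1.44, FDR 0.000348, DESeq2). Nnat, an imprinted gene of neural tissue, was at 55.3, 62.0 and 116 in control iPSCs and at 3.01, 2.02 and 2.61 in ESCs.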
